A study of Mus musculus with 13 samples.

Results

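The CDR3 is the loop of the T cell receptor (TCR) that is built where a V segment meets a J segment, and it opens with a conserved cysteine that the V segment encodes. Described here are the TCRα loops that carried a cysteine at any position after the first, in regulatory T (Treg) cells whose Foxp3 had been restored. Members were taken from the functional clonotypes, those with a TRAV segment, a TRAJ segment and a loop free of stop codons and frameshifts, where a clonotype is a distinct CDR3 nucleotide sequence with its V and J call in 1 sample. There were 965 members among 78425 functional clonotypes, which is 1.23%, and they held 968 internal cysteines because 3 members held 2 each. The loop as listed did not begin with cysteine in 11 members, nor in 373 functional clonotypes in all. In those 11 the internal cysteine is not a second one after the conserved first.

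The cells came from male Foxp3LSL/yCd4creERT2 mice on the C57BL/6 strain, in which a floxed Thy1.1 reporter and stop cassette silenced Foxp3. A Cre driven from Cd4 was switched on with 4-hydroxytamoxifen (4-OHT), given once at postnatal day 14 in all groups alike. The rescued cells, gated as GFP+Thy1.1- within TCRβ+CD4+ cells of spleen and lymph nodes, were collected at 1.5 months (n = 2, mice 8 weeks old), 3 months (n = 4, 3.5 months old), 5 months (n = 2, 5.5 months old) and 7 months (n = 5, 7.5 months old) after 4-OHT. There was no untreated or Foxp3-sufficient group, and the tables hold receptor sequences only, so the sorted phenotype could not be checked against marker genes.

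Most of the diversity of a TCRα loop arises where bases are trimmed from V and J and untemplated bases are added between them. The middle of the loop, the apex, faces the peptide and MHC, and cysteines near it have been described in receptors that react strongly with self ligands. In the thymus such receptors can be removed or can be steered to particular lineages, among them intraepithelial lymphocytes.

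Functional counts ran from 476957 to 882128 per sample and functional clonotypes from 4820 to 7990. The 3-month replicate 4 library shared 775 nucleotide clonotypes with 1.5-month replicate 1 (11.7% and 9.70% of their clonotypes) and 707 with 5-month replicate 1 (10.6% and 13.1%), against a median of 186 over all pairs of samples. Of members, 3 and 2 were shared in these pairs. Without these 3 libraries the within-sample differences in clone size and sharing kept their direction (log2 size -2.80, difference in sharing -32.2 percentage points, exact sign-flip p = 0.00195 for both, the smallest that 10 samples allow).

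The members fell into 3 kinds by where the cysteine lay. The largest, 458 members (47.5%), had a cysteine codon in place of a phenylalanine codon of TRAJ35 (chr14:54183774-54183838, + strand, GRCm38), an annotated J segment of the Tra locus. The TRAJ35 stretch is shown as annotated and as read in the members, each from the first base of the segment to the end of the CDR3, with the changed codon in capitals.
TRAJ35 as annotated: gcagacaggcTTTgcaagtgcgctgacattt
TRAJ35 in these members: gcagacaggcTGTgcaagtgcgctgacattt
The change is T12G, counted from the first base of the segment, and it falls on the 7th residue from the loop's end in all 458 loops. The largest of these members, joined to TRAV15D-2-DV6D-2, had 197 counts in 3-month replicate 2, where a clonotype with the same V segment and phenylalanine in place of the cysteine had 674 counts. Both are shown whole, with that codon in capitals.
With cysteine, 197 counts: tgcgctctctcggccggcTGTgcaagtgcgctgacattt
With phenylalanine, 674 counts: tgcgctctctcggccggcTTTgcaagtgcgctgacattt
The second kind, 133 members (13.8%), had the cysteine as the last CDR3 residue, where most J segments encode the phenylalanine of their conserved motif. Of these, 74 were joined to TRAJ12 (chr14:54206553-54206610, + strand), which ends the loop with the codon in capitals.
TRAJ12 as annotated, to the last CDR3 base: gggactggaggctataaagtggtcTTT
There the change was T26G, counted from the first base of that segment. The third kind held the other 374 members (38.8%), all those that met neither description. Their cysteines lay elsewhere in the loop, save for 16 at the TRAJ35 place whose match to the annotated segment did not reach across the codon. These carried 70.3% of the members' counts, against 25.3% for the TRAJ35 site and 4.36% for the last residue.

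The cysteine codon at the TRAJ35 site was present in every sample and made up a similar part of TRAJ35 counts in each. Over the 13 samples it took between 22.0% and 27.7% of the counts of functional TRAJ35 clonotypes that read either codon (median 24.1%, mean 24.5% ± 1.64, SD). By number of clonotypes it took between 43.2% and 61.4% (median 49.5%), with 474 clonotypes reading the cysteine codon at that place and 460 the phenylalanine codon in all. Of the 474, 458 are the members of the first kind and 16 those counted in the third. Among TRAJ35 clonotypes with a stop codon or frameshift, which make no receptor, the cysteine codon took 23.9% ± 4.0 (SD, n = 13) of the counts, with a range from 20.05% to 34.8%. The 2 ranges overlapped, and the highest non-functional value came from 5-month replicate 1, which had only 1 such clonotype with the cysteine codon and 4 with phenylalanine.

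Members at the TRAJ35 site rarely stood alone. In 337 of 458 (73.6%) the same sample also held the loop that was identical but for the phenylalanine codon, its twin, and in 311 of the 337 the twin was the larger. The median ratio of member to twin counts was 0.321, and 10% and 90% of the ratios lay below 0.20 and 0.683. The sample medians of that ratio ran from 0.281 to 0.408. Across the pairs, which share libraries, the Spearman correlation of member and twin counts was 0.942 (n = 337). The 121 members with no twin had a median of 2 counts and at most 21. A further change in the same segment, T24G, turned a leucine codon into an arginine codon. It accompanied the cysteine in 169 clonotypes and the phenylalanine in 134. With T24G the cysteine forms held 784 counts and the phenylalanine forms 765, against 6724 and 22690 with the leucine codon. Among the 265 pairs with the leucine codon the median ratio was 0.297, and 90% of the ratios lay below 0.469.

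**Figure D1:**
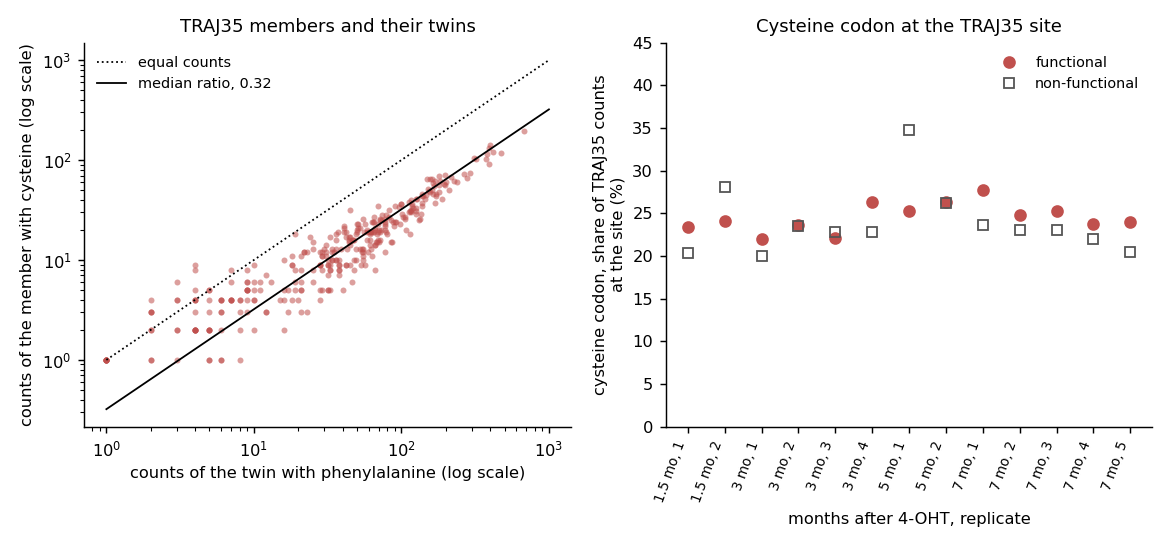
Left, counts of each TRAJ35 member with cysteine against counts of its twin with phenylalanine in the same sample (337 pairs, both axes on a log scale), with lines of equal counts and of the median ratio. Right, percentage of TRAJ35 counts at the site that read the cysteine codon, by sample, for functional (filled) and non-functional (open) clonotypes. Most pairs lie along a ratio near 0.321, and the functional values stay between 22.0% and 27.7%.

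A clonotype that lies 1 base from a larger clonotype of its sample was far more common among members than among the rest. Such a larger neighbour was found for 654 of 965 members (67.8%) and for 21.1% of functional clonotypes lacking an internal cysteine. Among the kinds it was found for 437 of 458 members at the TRAJ35 site (95.4%), 69 of 133 at the last residue (51.9%) and 148 of the other 374 (39.6%). Read from the larger clonotype to the smaller, the base change was T to G in 573 of the 654 members (87.6%), in 40.1% of the rest's pairs and in 84.7% of the 2257 non-functional clonotypes with a larger non-functional neighbour. In 410 of the 654 the change made the cysteine, 366 of them by T to G, and in the other 244 the neighbour held the cysteine too, and the change, which left it in place, was T to G in 207 (84.8%). The members' counts were a median 0.238 of the neighbour's (10% and 90% of ratios below 0.0833 and 0.409) and the rest's 0.200 (0.0649 and 0.720), so that the ratios overlapped widely. The lowest ratio was 0.0526 among members and 0.0486 among the rest, next to the 0.05 below which the authors' correction removes a clonotype 1 mismatch from a larger one. The share with a larger neighbour moved with membership. Whether these clonotypes are separate cells' receptors was not tested. The main results below are also given for the 311 members of 61417 functional clonotypes (0.506%) that had no larger neighbour, which held 61.2% of the members' counts.

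The 8 members with the highest share of a sample's counts were all of the third kind, and none had a larger neighbour. The first 5 are shown with the internal cysteine codon in capitals, because they carry the members' largest clones and place that codon at residue 3, 4 or 5.
TRAV12-2 and TRAJ37: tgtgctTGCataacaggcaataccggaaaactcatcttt
TRAV14-2 and TRAJ50: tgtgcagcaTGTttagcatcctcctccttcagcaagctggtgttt
TRAV17 and TRAJ37: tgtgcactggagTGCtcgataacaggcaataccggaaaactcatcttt
TRAV7D-2 and TRAJ6: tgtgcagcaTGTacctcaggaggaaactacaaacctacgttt
TRAV7D-2 and TRAJ23: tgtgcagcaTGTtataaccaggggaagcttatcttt
The TRAV12-2 and TRAJ37 clone had 2 bases between the segments, both within the cysteine codon, and 2439 counts in 5-month replicate 1, which is 0.449% of that sample (95% Wilson interval 0.431% to 0.467%, counting error only) and its 10th largest clonotype. It was found in no other sample. The TRAV14-2 and TRAJ50 clone had 716 counts (0.123%) in 7-month replicate 1 and 1 count in each of 2 other samples. The TRAV17 and TRAJ37 clone had 490 counts (0.0785%) in 3-month replicate 3 and was found nowhere else. These 3 clones therefore lay almost wholly within 1 sample each. The clones of TRAV7D-2 had 447 counts (with TRAJ6, 7-month replicate 1) and 443 counts (with TRAJ23, 3-month replicate 3). The other 3 of the 8, TRAV4D-4 with TRAJ34, TRAV3-3 with TRAJ44 and TRAV3-1 with TRAJ34, had 326, 278 and 277 counts and all came from 5-month replicate 1. Only the first 2 of the 8 passed 0.1% of a sample's functional counts, and these were the only members of the 965 to do so (0.207%), against 1.59% of the rest. Without clonotypes that had a larger neighbour these shares were 0.643% of members and 1.96% of the rest.

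Members were found in every sample, at 0.707% to 1.700% of functional clonotypes. At 1.5 months they made up 1.25% and 1.48% of functional clonotypes, and at 5 months 1.15% and 1.68%. At 3 months the 4 samples had 0.972%, 1.700%, 1.51% and 0.707%, and at 7 months the 5 had 0.909%, 1.198%, 1.28%, 1.33% and 0.980%. The lowest and the highest sample were both at 3 months, and all groups overlapped. With about 46 to 100 members per sample, the 95% Wilson intervals of these shares were wide, from 0.532% to 0.939% in the lowest sample and from 1.40% to 2.07% in the highest.

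The group means were 1.37% ± 0.161 (SD, n = 2) at 1.5 months, 1.22% ± 0.461 (n = 4) at 3 months, 1.42% ± 0.374 (n = 2) at 5 months and 1.14% ± 0.186 (n = 5) at 7 months. No later time point differed from 1.5 months beyond the spread between samples (exact permutation p = 0.900, 0.995 and 0.717 for 3, 5 and 7 months, two-sided, corrected for the 3 comparisons over all 540540 arrangements of the samples). With months the share had Pearson's r = -0.215 (permutation p = 0.476) and Spearman's rho = -0.224 (permutation p = 0.458) over 13 samples, and without the 1.5-month pair r was -0.134. Leaving out 1 sample at a time moved r between -0.403 (without 3-month replicate 4) and -0.120 (without 7-month replicate 1). For the members with no larger neighbour the means were 0.600% ± 0.201 at 1.5 months, 0.571% ± 0.176 at 3 months, 0.519% ± 0.0201 at 5 months and 0.418% ± 0.0872 at 7 months (SD, n = 2, 4, 2 and 5), and the smallest corrected exact permutation p was 0.274, at 7 months. With months these shares had r = -0.549 (permutation p = 0.0527, 0.107 adjusted over 3 measures) and rho = -0.524 (permutation p = 0.0695, adjusted 0.209), and r was -0.546 without the 1.5-month pair.

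By counts the members were a smaller part of the repertoire, 0.160% to 0.878% of a sample (median 0.351%). The means were 0.328% ± 0.0315 at 1.5 months, 0.353% ± 0.164 at 3 months, 0.665% ± 0.301 at 5 months and 0.307% ± 0.102 at 7 months (SD, same n). The 5-month mean was higher than the 1.5-month mean by 0.337 percentage points, a difference that did not pass (exact permutation p = 0.129, corrected as before), and the TRAV12-2 and TRAJ37 clone alone made up 0.449% of 5-month replicate 1. Without 5-month replicate 1 the difference was 0.124 percentage points and without 5-month replicate 2 it was 0.549 (corrected exact permutation p = 0.761 and 0.0651). For those with no larger neighbour the means were 0.214%, 0.259%, 0.550% and 0.156%, and the 5-month difference was 0.335 (corrected exact permutation p = 0.185). Cysteines within 2 residues of the loop centre, called apical here, were found in 0.907% ± 0.309 of clonotypes at 1.5 months, 0.844% ± 0.304 at 3 months, 0.885% ± 0.333 at 5 months and 0.788% ± 0.155 at 7 months (SD, n = 2, 4, 2 and 5), with corrected exact permutation p of 0.853 or more. In the subset with no larger neighbour these shares were 0.181% ± 0.141, 0.200% ± 0.0523, 0.0497% ± 0.00478 and 0.107% ± 0.0487. The 5-month difference was then -0.132 percentage points, with the smallest corrected exact permutation p of the 3, 0.149.

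**Figure D2:**
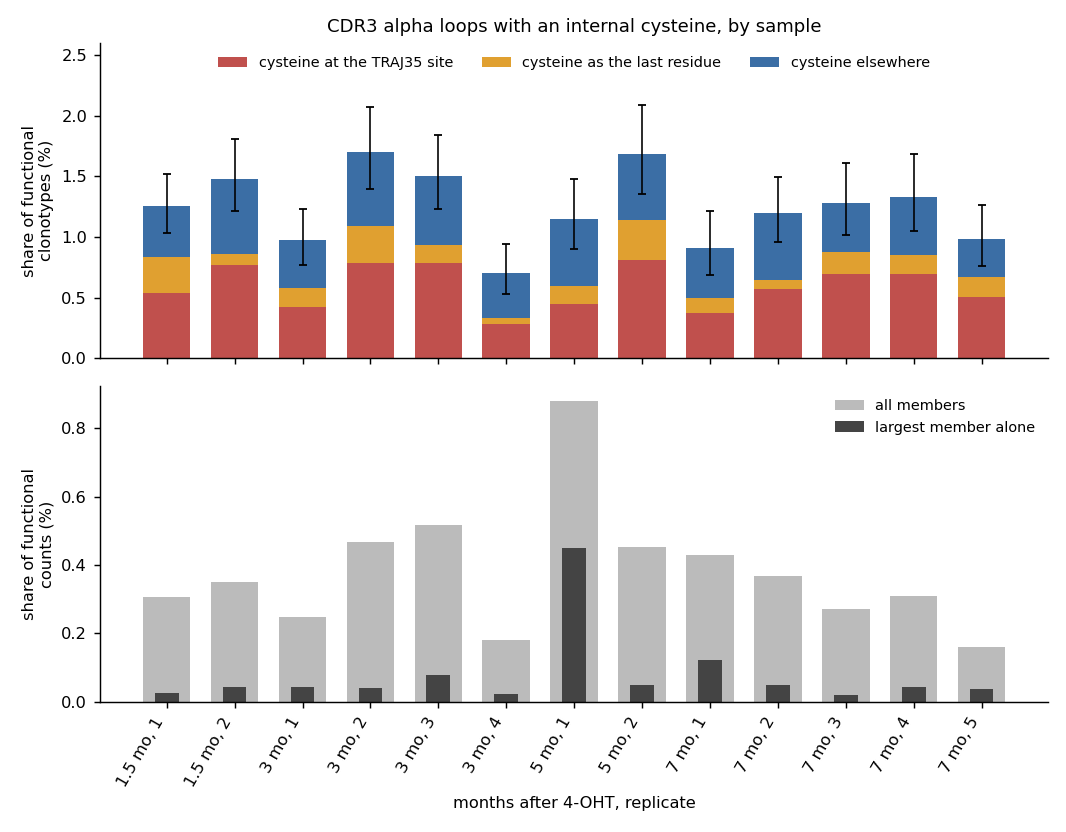
Top, members as a percentage of functional clonotypes in each of the 13 samples, stacked by the kind of cysteine, with 95% Wilson intervals of the total that cover counting error only. Bottom, members as a percentage of functional counts (light) and the largest single member (dark). All time points overlap in the top panel, and 5-month replicate 1 reaches 0.878% in the bottom panel, of which 1 clonotype gives 0.449%.

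Where the cysteine sat differed between the kinds. All 458 at the TRAJ35 site were apical, lying between 1 residue before and 2 residues after the centre, and they made up 458 of the 653 apical cysteines. All 133 last-residue cysteines lay after the apex. Of the 377 cysteines of the third kind, 195 (51.7%) were apical, 154 (40.8%) lay before the apex and 28 (7.43%) after it. Without clonotypes that had a larger neighbour, 227 cysteines of the third kind were left, and of these 67 (29.5%) were apical and 136 (59.9%) lay before the apex. The most common position among those 227 was residue 4, with 89 cysteines, followed by residue 5 with 36 and residue 3 with 25.

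Codon use followed the kinds as well. All 458 TRAJ35 cysteines and 123 of the 133 at the last residue were written TGT, as a single T to G change of TTT gives. In the third kind 219 were TGT and 158 TGC (58.1% TGT). By the V and J ends as listed, 677 of the 968 cysteine codons lay in J, 42 in V and 18 wholly in both, and 231 (23.9%) held bases of the junction. The V and J calls overlapped in 259 members (26.8%) and in 21.6% of the rest, and in these the listed origin of a codon is less certain. Of the 231, 36 codons held 1 inserted base, 113 held 2 and 82 were made wholly of inserted bases. Set against the annotated germline segments, only 2 of the 968 codons were a cysteine codon already encoded by the segment called, 635 were J codons and 8 V codons with a base changed, and 323 reached beyond what the germline segment explains.

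**Figure D3:**
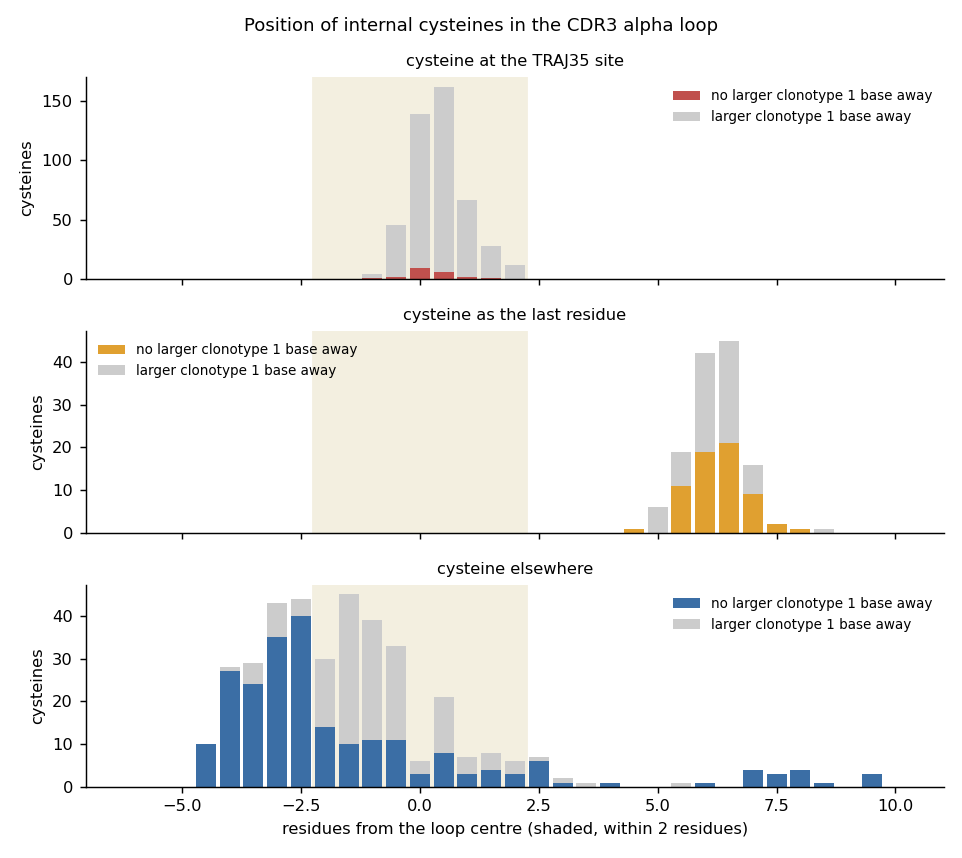
Number of internal cysteines by their distance in residues from the centre of the loop, for the TRAJ35 site, the last residue and all other positions. Colour marks clonotypes with no larger clonotype 1 base away and grey those with one, and the shaded band marks the apex. The coloured bars of the bottom panel lie mostly before the apex (136 of 227), while the 458 TRAJ35 cysteines are all within it.

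Whether cysteine is written less often into junctions that make a receptor was asked by setting functional clonotypes against out-of-frame ones, whose junctions are not translated into a receptor. All codons were read in the V frame, and many junction codons also hold V or J bases. In out-of-frame clonotypes the J bases of such codons are therefore read in another frame than in functional ones. How far that moves the shares was not tested. Of 98657 functional junction codons, those that hold a base outside V and J or span both, 231 (0.234%) read cysteine, against 73 of 15696 (0.465%) in out-of-frame clonotypes. Per sample the functional share was 0.153% to 0.340% (mean 0.239% ± 0.0664, SD) and the out-of-frame share 0.154% to 0.926% (mean 0.464% ± 0.247, SD, n = 13). The functional share was the lower in 10 of 13 samples (exact sign-flip permutation p = 0.00635, two-sided, 0.00889 after Benjamini-Hochberg adjustment over 7 within-sample comparisons). The difference held without clonotypes that had a larger neighbour (0.178% against 0.534%, lower in 12 of 13, adjusted exact permutation p = 0.00103). It did not pass when 1-count clonotypes were left out (difference -0.0875 percentage points, adjusted exact permutation p = 0.096). In-frame clonotypes with a stop codon gave 4 cysteines in 614 junction codons (0.651%), and the per-sample difference from functional ones did not pass (exact permutation p = 0.214). That control is small, with no cysteine in 9 of 13 samples.

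Cysteine was the rarest of the 20 residues in functional junction codons (0.234%) and in out-of-frame ones alike (0.465%). Pooled over samples, its functional share was 0.503 of its out-of-frame share, the lowest of the 20 ratios, next to glutamine at 0.511 and glutamate at 0.618, while histidine (1.86) and tyrosine (1.97) had the highest. Without clonotypes that had a larger neighbour the ratio of cysteine was 0.327 and again the lowest, and that of glutamine was 0.513. These ratios are descriptions of pooled codons with no test, and J bases are read in different frames in the functional and out-of-frame classes.

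Within the junction, cysteine codons lay at the apex in 44.4% ± 12.7 (SD, n = 13 samples) and other codons in 42.5% ± 0.686, a difference of 1.93 percentage points that did not pass (exact permutation p = 0.596). With an apex of 1 residue the difference was 8.14 and passed (adjusted exact permutation p = 0.0444), and with at least 10 counts it was -4.85 (adjusted exact permutation p = 0.492). Without clonotypes that had a larger neighbour the order turned. Cysteine codons were then apical in 20.5% ± 10.99 and other codons in 41.96% ± 0.738, lower for cysteine in 13 of 13 samples (exact permutation p = 2.44e-04, the smallest 13 samples can give, adjusted p = 5.70e-04).

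**Figure D4:**
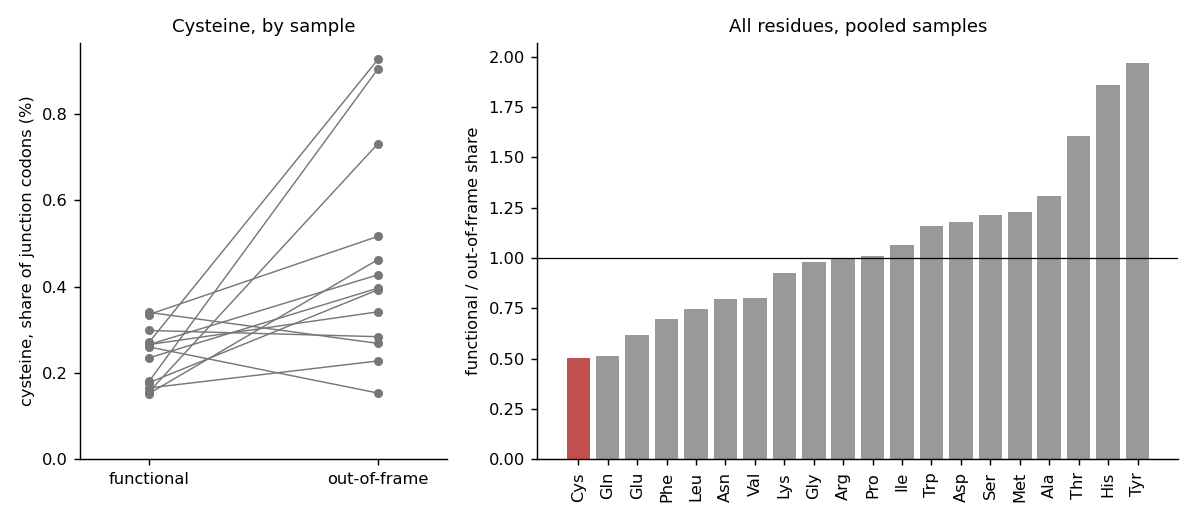
Left, percentage of junction codons that read cysteine in functional and in out-of-frame clonotypes, with a line for each of the 13 samples. Right, ratio of the functional to the out-of-frame share for each of the 20 residues over pooled samples, with cysteine in red. The functional value is the lower in 10 of 13 samples, and cysteine has the lowest ratio, 0.503.

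Members were small clones. The median member had 4.5 to 21.5 counts depending on the sample and the median functional clonotype lacking an internal cysteine 37 to 102. On the log2 scale the medians differed by -2.78 ± 0.426 (SD, n = 13), a ratio of 0.146, and members were the smaller in 13 of 13 samples (exact sign-flip permutation p = 2.44e-04, the smallest possible, adjusted p = 8.54e-04). The difference was -1.49 with at least 10 counts and -1.16 for members whose cysteine codon lay not wholly in V or J. The kinds differed in this. The medians were 9 counts at the TRAJ35 site, 2 at the last residue and 12.5 in the third kind, against 55 in the rest. In the third kind without larger neighbours the median was 32 counts, against 65 in the rest without larger neighbours. Of these 226 members 82 had a single count. Over all members without larger neighbours 147 of 311 had a single count, and the log2 difference from the rest was -3.80 ± 1.83.

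Members were also seldom shared. In each sample the share of distinct CDR3 amino-acid sequences found in at least 1 other sample was lower for members, 22.7% ± 6.73 against 58.0% ± 2.92 (SD, n = 13), with members lower in 13 of 13 (exact permutation p = 2.44e-04, adjusted p = 8.54e-04). Because samples share partners, this p-value is approximate. Members' low counts move with this measure and their part in it was not tested beyond a minimum of 10 counts per clonotype, with which the difference was -35.3 percentage points. Of 807 distinct member loops 719 were in 1 sample only, and none was in 10 or more. The 3 most shared were TRAJ35 loops, found in 8, 4 and 4 samples, and the same loops with phenylalanine in place of the cysteine were found in 8, 5 and 4. The first of them had 1 to 29 counts in 12 clonotypes and 7 nucleotide forms, of which 1 is shown because no other member loop reached as many samples.
TRAJ35 loop in 8 samples: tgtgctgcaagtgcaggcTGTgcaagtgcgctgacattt
Outside TRAJ35 no loop was in more than 3 samples, and 4 were in 3, as were 12 TRAJ35 loops. The 4 were the TRAV14-2 and TRAJ50 clone shown above, whose single counts in 2 of its 3 samples lie under the floor of 3 counts and within the rule for likely carry-over (100 times more counts elsewhere), a TRAJ43 loop made from 3 nucleotide sequences with 6 to 215 counts, a TRAJ9 loop made from 3 with 63 to 125 counts and a TRAJ12 loop made from 4 with 3 to 17 counts, the last 2 named after their values were seen. Among clonotypes with no larger neighbour the difference in sharing was -45.0 percentage points (11.1% ± 9.57 against 56.1% ± 3.26, SD, n = 13, adjusted exact permutation p = 5.70e-04).

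**Figure D5:**
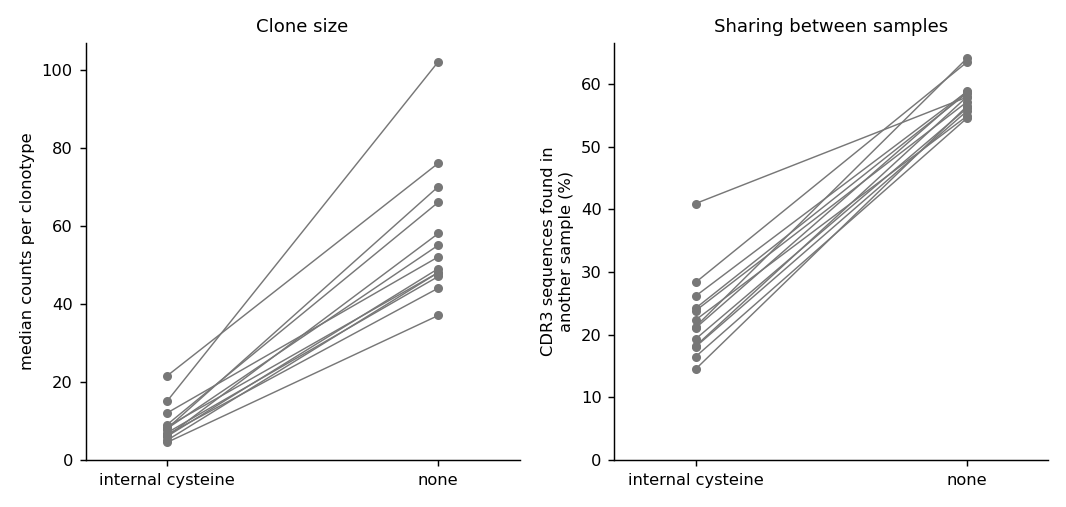
Left, median counts per clonotype for members and for functional clonotypes with no internal cysteine, a line per sample. Right, percentage of distinct CDR3 amino-acid sequences that another sample also held. Both values are lower for members in all 13 samples.

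Members had longer loops and more inserted bases on average, and over all members that difference rested on a few very long loops. The mean length was 13.9 ± 0.483 residues against 13.5 ± 0.0249 (exact permutation p = 0.00586, adjusted p = 0.00889, higher in 10 of 13), and the mean number of inserted bases 3.30 ± 1.14 against 2.14 ± 0.0534 (exact permutation p = 9.77e-04, adjusted p = 0.00228, higher in 11 of 13; SD, n = 13). Loops of 18 or more residues were members in 21 of 184 cases (11.4%), and the longest had 42 residues. Without loops of that length the differences were -0.0742 residues (adjusted exact permutation p = 0.180) and -0.0916 bases (adjusted exact permutation p = 0.287). With long loops kept and clonotypes with a larger neighbour left out, the differences were larger, 1.298 residues (14.9 ± 1.59 against 13.6 ± 0.0232, adjusted exact permutation p = 0.00199) and 4.64 bases (6.94 ± 4.26 against 2.30 ± 0.0587, adjusted exact permutation p = 0.00103; SD, n = 13). Of the 21 long members 20 had no larger neighbour and so stayed in this smaller set. The set was not tested without its long loops.

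J segment use set the members apart mainly through TRAJ35. It took 48.9% ± 6.35 of a sample's members (38.7% to 56.6%) and 0.615% ± 0.158 of the rest (SD, n = 13), a log2 difference of 6.29 ± 0.106 (SE, edgeR quasi-likelihood test, adjusted p = 2.63e-230). Of all 952 functional TRAJ35 clonotypes, 478 (50.2%) were members. Of 43 J segments tested, 2 (4.65%) were called higher in members and 28 (65.1%) lower. Shares add up to the whole, so the other segments together took a smaller share of members than of the rest, and the median log2 difference over the 43 was -1.46. For members whose cysteine codon lay not wholly in V or J, TRAJ35 was not called (log2 difference 1.02, edgeR adjusted p = 0.640), and 2 segments were higher and 2 lower.

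TRAJ12 was the other segment called higher (log2 difference 0.99 ± 0.23, SE, edgeR adjusted p = 1.93e-04), but its direction flipped to -0.27 with DESeq2, to -0.87 with TMM factors without larger neighbours, to -2.19 for members whose cysteine codon lay not wholly in V or J and to -3.45 without last-residue members. It took 7.79% ± 4.22 of members and 3.97% ± 0.255 of the rest (SD, n = 13), and 74 of its 77 members were of the last-residue kind. TRAJ15 was the clearest among those lower. It took 0.384% ± 0.850 of members (4 of 965) and 5.77% ± 0.608 of the rest, a log2 difference of -3.79 ± 0.49 (SE, edgeR adjusted p = 9.51e-13), and it was called lower under every setting tried. TRAJ5 had 0 of 965 members, which allows a share of up to 0.311%, against 0.870% of the rest, so that it was at least 2.80-fold lower (floor of 3 clonotypes over all samples). Without clonotypes that had a larger neighbour, 0 of 311 members allows up to 0.965% for TRAJ5, against 0.952% of the rest. In that subset a lower share of TRAJ5 was therefore not shown.

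TRAJ21, TRAJ49, TRAJ37 and TRAJ7 were called lower as well, with log2 differences of -1.56, -2.46, -1.96 and -2.43 (edgeR adjusted p = 4.97e-05 for TRAJ21 and 2.73e-04 or less for the others). None of these 4 was called once TRAJ35 clonotypes were left out, with differences of -0.60 to -1.48. Without TRAJ35 clonotypes 3 segments were higher, TRAJ12 (1.94), TRAJ16 (1.40) and TRAJ17 (1.08), and 2 lower, TRAJ15 and TRAJ5. Without clonotypes that had a larger neighbour 3 of 43 (6.98%) were higher and 1 (2.33%) lower. The 3 were TRAJ35, with 22 of 311 members and a log2 difference of 3.65 ± 0.50, TRAJ16 (1.75 ± 0.37) and TRAJ32 (1.37 ± 0.39), and the 1 was TRAJ15, with 0 of 311 members and at least 3.83-fold lower. At the TRAJ35 site 21 members had no larger neighbour, and 18 of these had a single count, under the floor of 3 counts. With TMM factors the subset without larger neighbours gave 1 segment higher, TRAJ35 (2.33), and 33 lower, with a median log2 difference of -1.91 in place of -0.55. TRAJ16, TRAJ17 and TRAJ32 were named after their values were seen. Their direction depended on the setting. With DESeq2 on all members the log2 differences of TRAJ16, TRAJ17 and TRAJ32 were -0.83, -1.08 and -1.34. For members whose cysteine codon lay not wholly in V or J they were -8.21, 2.00 and 1.40.

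V segment use set the members apart less clearly. Of 19 V families tested none passed (0%, edgeR adjusted p), 7 had an unadjusted p under 0.05, DESeq2 called 2 higher, and edgeR with TMM factors called 3 lower, TRAV14 (-0.52), TRAV7 (-0.34) and TRAV21 (-2.08, 3 members). The smallest p was that of TRAV15, with 26 members, 2.74% ± 2.30 of members and 1.14% ± 0.202 of the rest (log2 difference 1.198 ± 0.400, SE, edgeR adjusted p = 0.0573). That difference was -0.13 without TRAJ35 clonotypes. It was 0.53 without clonotypes that had a larger neighbour (6 members, edgeR adjusted p = 0.540). For members whose cysteine codon lay not wholly in V or J it was 0.20 (edgeR adjusted p = 0.859). No V family was called higher or lower in either of these last 2 settings. TRAV15 passed with DESeq2, with no filter, with at least 2 or 10 counts, and without likely carry-over, last-residue members or 3 libraries (log2 difference 1.196 to 1.74, adjusted p = 0.00127 to 0.0487). It also passed when 1.5-month replicate 1, 3-month replicate 1, 5-month replicate 1 or 5-month replicate 2 was left out (edgeR adjusted p = 0.0144 to 0.0338), and leaving out 1.5-month replicate 1 gave 4 families higher and 1 lower. The families with most members were TRAV7 (167), TRAV14 (119) and TRAV4 (107), with log2 differences of -0.13, -0.31 and 0.14 in the main scaling.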

How the data were processed

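The authors amplified TCRα transcripts by 5′ RACE, aligned reads and assembled clonotypes with MiXCR, and removed likely errors with VDJtools by frequency (up to 2 mismatches, ratio below 0.05 per mismatch). The deposited tables give, for each clonotype, a raw count, its share of the sample as a fraction (not used here), the CDR3, the V and J calls and the V end and J start. Whether a count is a read or a molecule is not given in the sources used here, nor is how many mice a sample came from, so p-values measure only the spread between samples. Total counts were 509818 to 936831 per sample, and 3 counts, the floor for detection, are 3.40e-04% to 6.29e-04% of functional counts. The 11823 non-functional clonotypes served as controls, and 121 of 90369 rows whose V or J was not TRAV and TRAJ were left out. The build was GRCm38 per the labels, and germline segments and positions came from its GENCODE annotation (151 of 152 names found).

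The members and lists were chosen with earlier results of these data known. Apical means within 2 residues of the loop centre. A larger neighbour is a clonotype of the same sample and class (functional or non-functional) that differs at 1 CDR3 base and has more counts. Germline reach allowed 2 mismatches, each followed by 3 matches. Time points were tested by exact permutation with the maximum over 3 comparisons, in place of the study's analysis of variance, since groups are small, and within-sample differences by exact sign-flip permutation. V family and J segment use was tested on clonotype numbers per segment, with at least 50 clonotypes, by edgeR 4.0.16 quasi-likelihood tests in R 4.3.3 with the sample as a block and class totals as library sizes, adjusted by Benjamini-Hochberg. Segments named were up to 6 in each direction with the smallest adjusted p under 0.05, or the 1 with the smallest p, and clonotypes named were the 8 largest and the 5 most shared members. In 20 simulations the usage test recovered 95% of 3 V families of 19 and 100% of 3 J segments of 43 changed 3-fold. With nothing changed, 0% of V runs and 5% of J runs gave a call. The simulated counts held no spread between samples beyond counting error and no shift as large as that of TRAJ35. Alternatives were minimums of 2 and 10 counts, amino-acid clonotypes, equal depth at 476957 counts, likely carry-over removed (100 times more counts elsewhere), a log2 scale, a replicate block, each sample left out, other cysteine, apex and weighting definitions, and for usage DESeq2 1.42.0, TMM, no filter and sign-flip tests. Leaving out larger neighbours' variants, TRAJ35, last-residue members, 3 libraries or loops of 18 or more residues was added after the data were seen. Python 3.11.15, numpy 2.4.6, pandas 2.3.3, scipy 1.17.1 and matplotlib 3.10.9 were used.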

Additional observations from a re-analysis of the deposited data

How the results depend on the processing

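Of 338 alternative values other than those that left out a sample, 268 were classed as the same as the main value. For tests this meant the same direction and side of the threshold. Counts of called segments are also among the 338, and there a near count was classed as the same. For J segments lower, 20 with TMM and 40 with DESeq2 were so classed beside 28 in the main run, and 18 with at least 10 counts was not. Members stayed smaller and less shared under every alternative run. No time-point comparison passed under any of them. The differences from 1.5 months that changed sign, in percentage points and none of them past the threshold, were as follows. For the share of clonotypes they were 0.00862 at 3 months with at least 10 counts, 0.0394 at 3 months for codons not wholly in V or J, and -0.0814 at 5 months without larger neighbours. For apical cysteines they were 0.0894 at 5 months with at least 2 counts, 0.0529, 0.114 and 0.0543 at 3, 5 and 7 months with at least 10, 0.0190 at 3 months without larger neighbours, and 0.0570 and 0.00693 at 3 and 5 months without TRAJ35. For the share of counts the 3-month value was -0.0232 on the log2 scale.

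The replicate numbers share no stated origin, and deviations of same-numbered samples correlated at 0.486 for the share of clonotypes, -0.253 for the share of counts and 0.792 for apical cysteines (14 pairs). With a replicate block the clonotype shares differed by -0.150, 0.0504 and -0.191 at 3, 5 and 7 months and the share of counts at 7 months by 0.0445 instead of -0.0215, and no call changed.

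Leaving out 1 sample moved the clonotype-share differences between -0.304 and 0.0270 at 3 months, between -0.214 and 0.315 at 5 months and between -0.339 and -0.112 at 7 months. The apical differences moved between -0.281 and 0.155, -0.257 and 0.214, and -0.337 and 0.0993 at 3, 5 and 7 months, and those in share of counts between -0.0299 and 0.0822 at 3 months, between 0.124 and 0.549 at 5 months and between -0.0520 and 0.0153 at 7 months. V families called ran from 0 to 4 higher and from 0 to 1 lower, and TRAV15 from 1.02 to 1.33 (log2). The within-sample calls all held when 1 sample was left out.

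The junction cysteine difference from out-of-frame clonotypes did not pass with at least 2 counts (-0.0875), at least 10 counts (-0.0856) or codons weighted by counts (-0.144). Against clonotypes with a stop codon it was 0.216 with at least 10 counts, a sign that the control fixes because its 74 codons left in 12 samples held no cysteine, and 0.0589 when weighted. The apical difference of junction codons was -4.85 with at least 10 counts, 8.14 with an apex of 1 residue, past the threshold, and -21.4 without larger neighbours. The length difference did not pass without TRAJ35 (0.495), and length and inserted bases were -0.0742 and -0.0916 without loops of 18 or more residues. The causes were not tested.

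V families called higher numbered 2 with DESeq2 and with no filter, 3 without 3 libraries, and 1 each with at least 2 counts, at least 10 counts, the sign-flip test, carry-over left out, TRAJ35 left out and last-residue members left out. Those lower numbered 3 with TMM and 1 each with at least 2 counts, the sign-flip test and TMM without larger neighbours. J segments higher numbered 1 with DESeq2, without last-residue members and with TMM without larger neighbours. Those lower numbered 18 with at least 10 counts, 2 without TRAJ35, 2 for codons not wholly in V or J and 1 without larger neighbours, or 33 there with TMM. DESeq2 called 40 J segments lower. TRAV15 turned to -0.13 without TRAJ35. TRAJ12 turned to -0.27 with DESeq2, -2.19 for codons not wholly in V or J, -0.87 with TMM without larger neighbours and -3.45 without last-residue members. About 46 to 100 members per sample limit what can be seen between time points.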
